A study of Gallus gallus with 2 samples.

Results

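ACLY, AACS, HMGCS1, MVD and FDPS are cytosolic enzymes of fatty acid and sterol synthesis. They were chosen with earlier results of these data known. Their probes were found by name, as those whose gene name or description gives 1 of these enzymes. The rule found 5 genes with 1 probe each, out of 8638 named genes with a probe and 42034 probes in all. All 5 probes were kept for testing, were well above background in both channels of both arrays, and none was saturated.

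Filial imprinting is the early learning by which a newly hatched chick forms an attachment to an object it has seen. The samples are whole brains of newly hatched Cobb chicks, a broiler strain, either trained (labelled imprinted) for 1 h or reared in the dark. RNA was combined by sex and condition into 4 pools of 8 chicks, and each sex had a single 2-colour array with the trained pool in Cy3 and the dark-reared pool in Cy5. The dark-reared pools were the only controls, so learning, exposure to light and handling during training cannot be told apart. Spread between individual chicks is not visible in pools. In whole brain, fewer cells of a type and less RNA per cell cannot be told apart.

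The pathway is best known from mammals. ATP-citrate lyase, encoded by ACLY, splits citrate exported from mitochondria and so provides the acetyl-CoA from which both fatty acids and sterols are made. Acetoacetyl-CoA synthetase, encoded by AACS, activates the ketone body acetoacetate for the same use. HMGCS1 joins acetoacetyl-CoA with acetyl-CoA to HMG-CoA, from which mevalonate is made, MVD makes isopentenyl pyrophosphate, and FDPS assembles farnesyl pyrophosphate. Farnesyl pyrophosphate is the branch point to squalene and cholesterol, and to prenyl groups, dolichol and ubiquinone. The brain makes most of its own cholesterol, much of it for myelin, because lipoproteins of the blood do not cross the blood-brain barrier.

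In galGal2 coordinates, the build that the array design uses, the FDPS probe lies on chromosome E26C13 from 32668 to 32814 on the plus strand. The HMGCS1 probe lies on chromosome Z from 6723351 to 6723410 on the minus strand. The AACS probe spans 4437595 to 4440378 on the minus strand of chromosome 15. The MVD probe lies on unplaced sequence (Un) from 70007579 to 70007638 on the minus strand, and the ACLY probe has no position in the design. Whether the probes lie in exons or in untranslated regions was not analysed here.

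Ratios below are log2 of trained over dark-reared after loess normalization, which sets the centre of the ratios to 0 at each signal strength, unless another value is named. Between 61.5% and 66.5% of all probes were well above background in the 4 channels. There was no dye swap, and an unequal response of a probe to the dyes would shift its ratio alike on each array. Both arrays lie on the same slide, and each probe occupies the same row and column on both. A position effect therefore repeats between arrays as a training effect would.

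The 5 probes differ in their place on the array. The deposited scanner tables hold, for each spot and channel, a smooth multiplicative surface that the software fitted over the array. The log2 ratio of the green to the red surface ran from -0.53 to 0.21 over the 27372 kept probes of the female array and from -0.63 to 0.27 on the male array. Across these probes it correlated with the loess ratio at r = 0.51 in females and 0.51 in males (a description across probes of the same arrays, which are not replicates). Ratios fell off towards the edges: the median of the kept probes in column 84 of 85 was -0.18 on the female array and -0.21 on the male, and in rows 529 to 532, the last of 532, it was -0.23 and -0.19. HMGCS1 lies in column 84 and row 290, and MVD in row 531 and column 64. ACLY (row 458, column 27), FDPS (row 262, column 53) and AACS (row 224, column 28) lie farther in. Each result is therefore given also after dividing out the software's surface and after subtracting the local median, which is the median ratio of the other kept probes within 20 rows and 10 columns on the same array. Both adjustments were chosen after the data had been seen. After division by the surface the correlation with it was -0.33 on the female array and -0.34 on the male, and after subtracting the local median it was 0.14 and 0.15, so that the first goes past 0 and the second falls short of it.

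**Figure D1:**
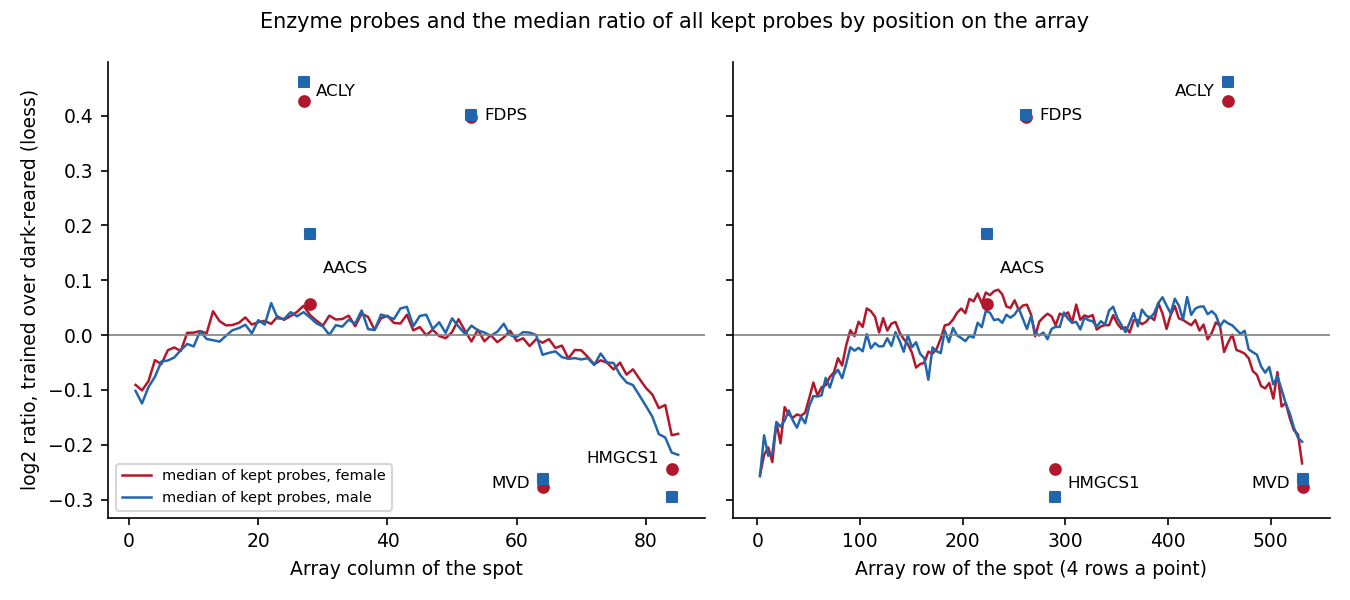
Log2 ratio of trained over dark-reared (loess) against the array column (left) and row (right) of the spot. Lines are medians of all kept probes in each column or in 4 rows, and points are the 5 enzyme probes (circles, female array; squares, male array): HMGCS1 and MVD lie where the medians fall off at the edge, and ACLY and FDPS lie far above the medians around them.

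At limma's adjusted p of 0.05, 4 of the 5 enzyme probes passed, ACLY and FDPS higher and HMGCS1 and MVD lower in trained chicks. Of all kept probes 17.5% passed, 6.31% higher and 11.2% lower. Because the enzymes were chosen with earlier results of these data known, their count beside this share is a description and no test. With the local median subtracted 7.75% of probes passed, 3.19% higher and 4.56% lower, and of the 5 enzymes only ACLY and FDPS, both higher. After division by the surface 13.5% passed, 7.09% higher and 6.38% lower, and again ACLY and FDPS were the only enzymes among them. Median centring of each array in place of loess moved the median of all kept probes to -0.30 on the female array and -0.39 on the male and the split over all probes from 1726 higher and 3074 lower to 974 and 16499. Division by the surface gave 1941 and 1745.

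ACLY, which makes acetyl-CoA from citrate, was higher in trained chicks in the loess ratios and under both position adjustments. It did not pass in the processed signals or with median centring. Its mean spot signal was 107 in the female and 105 in the male trained pool, over local backgrounds of 36 and 38. In the dark-reared pools it was 140 in females and 143 in males, over backgrounds of 52 and 51. The signal thus stood 2.70 to 2.96 times over background in every channel, the weakest of the 5 in that respect. The raw signals of the channels are not comparable, because Cy5 read brighter than Cy3 over the whole array. After loess the ratio was 0.43 on the female array and 0.46 on the male, 0.44 ± 0.024 (SD, n = 2 arrays) or 1.36-fold, with limma's adjusted p = 0.00913 over all kept probes. It lay above 98.9% of kept probes in females and 99.1% in males. The local median around the spot was 0.023 and 0.061, and less this median ACLY stood at 0.40 on each array (limma's adjusted p = 0.0239). Division by the surface left 0.38 and 0.36 (limma's adjusted p = 0.0178). The constant added in background correction compresses the ratios of dim probes by construction, and with an offset of 16 in place of 50 the ratio was 0.59 and 0.64 (limma's adjusted p = 0.0490). In the software's processed signals it was 0.66 and 0.74, with limma's adjusted p = 0.261; in those values limma called 0 of the 27372 probes, and 4878 had an unadjusted p under 0.05, ACLY among them. In the authors' deposited table the software's own spot p-value for ACLY was 0.00232 on the female array and 0.000736 on the male. Those of the other 4 enzymes lay between 0.137 and 0.895, with 0.192 and 0.137 for FDPS. Each such p-value belongs to 1 spot on 1 array and does not measure the spread between arrays, pools or chicks. With median centring ACLY was 0.17 and did not pass (limma's adjusted p = 0.0984). All kept probes then had medians of -0.30 on the female array and -0.39 on the male. Median centring does not centre the ratios at each signal strength. The dimmer probes of SCD and ACACA, at 0.013 and 0.072 after loess, were then at 0.17 and 0.25. FASN, at 0.0018 after loess, was at -0.24.

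AACS, which activates acetoacetate, did not pass the test. Its mean signal was 158 in the female and 155 in the male trained pool, and 292 in females and 286 in males reared in the dark. The ratio was 0.057 on the female array and 0.18 on the male, a mean of 0.12 ± 0.090 (SD, n = 2), with limma's adjusted p = 0.215 and a 95% interval from -0.023 to 0.26. The arrays differ more for AACS than for the other enzymes. The arrays fell on both sides of 0 once the local median was subtracted, at -0.049 in females and 0.11 in males, and with the surface divided out at -0.10 and 0.054. With median centring AACS passed as lower, at -0.32 (limma's adjusted p = 0.00170). It was then at -0.33 on the female array and -0.30 on the male, where all kept probes had medians of -0.30 and -0.39. AACS thus lay just below the median of all kept probes on the female array and above it on the male. A p that misses the threshold does not show that AACS was equal in trained and dark-reared chicks.

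HMGCS1, the enzyme that commits acetyl-CoA to HMG-CoA, was lower in trained chicks in the loess ratios, but its spot lies next to the array's edge. The mean signal was 9062 in the female and 7749 in the male trained pool, and 26454 in females and 26813 in males reared in the dark, 228 to 519 times its background. The ratio was -0.25 on the female array and -0.30 on the male, -0.27 ± 0.036 (SD, n = 2) or 0.829-fold, with limma's adjusted p = 0.0242. The surface at this spot had a log2 ratio of -0.25 on the female array and -0.32 on the male, lower than at all but 8.93% and 4.66% of kept probes. With it divided out HMGCS1 stood at 0.015 and 0.050, and limma's adjusted p was 0.696, with a 95% interval of -0.095 to 0.16 for the mean. The kept probes in column 84 then had medians of 0.060 on the female array and 0.11 on the male, above HMGCS1. Subtracting the local median left HMGCS1 below 0, at -0.16 on the female array and -0.20 on the male, and the mean missed the threshold (limma's adjusted p = 0.0885). Column 84 then had medians of -0.10 and -0.12, again above HMGCS1. Its 73 kept neighbours within 20 rows and 1 column had medians of -0.14 and -0.16, and 20.5% of them on the female array and 30.1% on the male lay below HMGCS1. At offset 16 the loess ratio of HMGCS1 did not pass either (limma's adjusted p = 0.0763). With median centring HMGCS1 was at -1.23 (limma's adjusted p = 2.53e-36), but 16499 of the 27372 kept probes were then called lower. All kept probes then had medians of -0.30 on the female array and -0.39 on the male. BDH1A and OXCT1, which did not pass after loess, were then at -1.17 and -1.06, and the dimmer FASN at -0.24. The sign of the HMGCS1 ratio thus depended on the position adjustment used.

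MVD, which makes isopentenyl pyrophosphate, gave nearly the same loess ratio as HMGCS1 and also sits at an edge. Its mean signal was 2719 in the female and 2156 in the male trained pool, and 7425 in females and 6617 in males reared in the dark. The ratio was -0.28 on the female array and -0.26 on the male, -0.27 ± 0.0094 (SD, n = 2), with limma's adjusted p = 0.0234. The surface ratio at the spot was -0.30 and -0.28, and with it divided out MVD stood at 0.048 and 0.051 (limma's adjusted p = 0.545). The kept probes in rows 529 to 532 then had medians of 0.077 on the female array and 0.13 on the male, above MVD. After subtracting the local median MVD was at -0.11 and -0.089 (limma's adjusted p = 0.254), where these rows had medians of -0.085 and -0.045. The loess ratio of MVD at offset 16 did not pass (limma's adjusted p = 0.0818). With median centring it was at -1.09 (limma's adjusted p = 8.45e-29), where 16499 of the 27372 kept probes were called lower. All kept probes then had medians of -0.30 on the female array and -0.39 on the male. The 81 kept neighbours within 4 rows and 10 columns had medians of -0.26 on the female array and -0.22 on the male. MVD lay in their middle, with 46.9% and 40.7% of them below it.

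FDPS, which makes farnesyl pyrophosphate, rose in trained chicks in the loess ratios and under both position adjustments, and fell below 0 only with median centring. The mean signal was 3195 in the female and 2863 in the male trained pool, and 5424 in females and 5544 in males reared in the dark. The loess ratio was 0.40 on each array, 0.40 ± 0.0027 (SD, n = 2) or 1.32-fold, with limma's adjusted p = 0.0104. Less the local median it was 0.35 on each array (limma's adjusted p = 0.0276), and with the surface divided out 0.28 on the female array and 0.31 on the male (limma's adjusted p = 0.0247). At offset 16 it just passed (limma's adjusted p = 0.0499), and the processed signals gave 0.27 and 0.31 (limma's adjusted p = 0.264). With median centring FDPS was at -0.35 on the female array and -0.48 on the male, where all kept probes had medians of -0.30 and -0.39. FDPS then lay below the median of all kept probes on both arrays. Median centring does not centre the ratios at each signal strength. INSIG1 and FASN, both dimmer than FDPS and at -0.0039 and 0.0018 after loess, were then at -0.62 and -0.24. The brighter OXCT1, at -0.13 after loess, was at -1.06. With 2 arrays of pooled RNA on a shared slide, the SD of the FDPS ratio leaves out the spread between chicks and between slides.

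**Figure D2:**
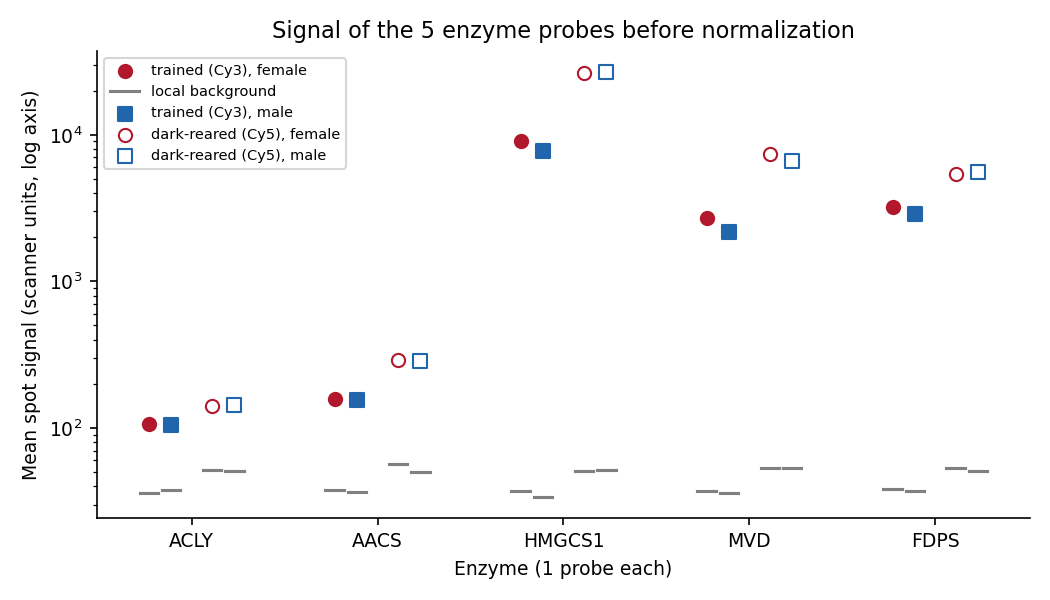
Mean spot signal of each enzyme probe in scanner units on a log axis, before any normalization, with the trained pools filled and the dark-reared pools open (circles, female; squares, male) and the local background as grey bars. All 20 signals stand above their background, ACLY the least; signals of different probes, and of Cy3 and Cy5, are not comparable with each other.

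The loess ratios of FDPS and MVD lay 0.67 apart in females and 0.67 in males. Subtracting the local median left 0.47 and 0.44 between them, and dividing out the surface left 0.23 and 0.26. ACLY and FDPS lay above HMGCS1 and MVD on both arrays in the loess values, with either other background correction, in the processed signals, with median centring and under both position adjustments. The smallest gap between the upper and the lower pair was between 0.20 (processed signals) and 0.68 (median centring). This order was noticed in the data and is a description. HMGCS1 and MVD kept no order: HMGCS1 minus MVD was 0.031 in females and -0.032 in males.

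**Figure D3:**
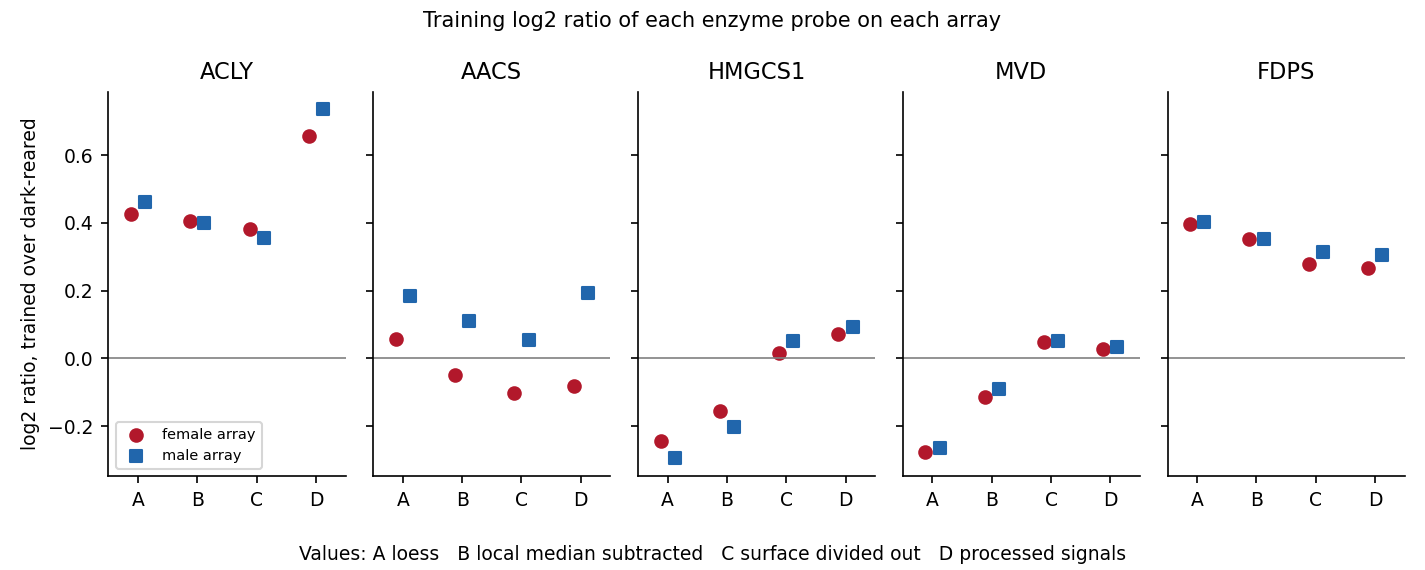
Log2 ratio of trained over dark-reared for each enzyme probe on the female (circles) and male (squares) array under 4 ways of processing: A, loess; B, loess less the local median; C, loess with the software's surface divided out; D, the software's processed signals. ACLY and FDPS stay above 0 in all 4 columns, MVD and HMGCS1 move from below 0 in A to above 0 in C and D, and AACS straddles 0 in B, C and D.

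The other genes of these pathways were described from 6 lists of 85 genes, of which 52 had a kept probe (the brightest probe of a gene was used). Among them 5 were higher, 4 were lower and 43 did not pass, or 17.3% called, against 21.2% of the 7511 named genes with a kept probe, of which 8.93% were higher and 12.2% lower. Without the 5 enzymes, 3 of 47 were higher and 2 lower. The median ratio over the 52 genes was 0.0075, beside 0.0057 over all named genes. The lists as a whole thus sat near the background of the array. With the local median subtracted, limma called 4 of 52 higher and 0 lower (7 and 4 at an unadjusted p under 0.05), against 9.2% of named genes called, 4.47% higher and 4.73% lower. After division by the surface 3 were higher and 2 lower, against 13.3% called, 7.99% higher and 5.35% lower. With median centring the split was 1 higher and 40 lower, where 974 of the 27372 kept probes were called higher and 16499 lower. At offset 16 the pathway genes that passed were 2, ACLY and FDPS, where 306 of the 27372 kept probes were called higher and 628 lower.

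In sterol synthesis, 12 genes were kept and 2 were higher (FDPS and ACAT2), 3 lower (HMGCS1, MVD and SQLE) and 7 not past the test. That was 41.7% called, beside 21.2% of named genes. Less the local median it was 16.7%, beside 9.2%, and with the surface divided out 8.33%, beside 13.3%. The calls include FDPS, HMGCS1 and MVD, which were chosen with earlier results of these data known. ACAT2, the cytosolic thiolase that makes acetoacetyl-CoA for HMGCS1, had a ratio of 0.27 on the female array and 0.25 on the male (limma's adjusted p = 0.0254). Its mean was 0.24 less the local median (limma's adjusted p = 0.0487) and 0.18 with the surface divided out (limma's adjusted p = 0.0711), and with median centring it was below 0 at -0.61. SQLE, the squalene epoxidase, had -0.28 on the female array and -0.30 on the male (limma's adjusted p = 0.0193), and its spot in row 42 and column 77 has surface ratios of -0.30 and -0.34. SQLE was at -0.090 less the local median (limma's adjusted p = 0.299), and with the surface divided out at 0.067. All 3 sterol synthesis genes called lower lie in regions of the array where ratios run low, and none of them passed after either position adjustment. The part of position in these 3 calls was not tested.

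Neither FDFT1, the squalene synthase directly below FDPS (-0.069 in females and 0.24 in males), nor LSS, the lanosterol synthase (0.13 and 0.14), passed. FDFT1 and LSS lie outside the rule for named genes and were chosen after their values had been seen.

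Among the branches that use farnesyl pyrophosphate for other products, 0 of 4 genes passed in limma's test, and 0 at an unadjusted p under 0.05, namely PDSS1, PDSS2, FNTA and COQ2. Of all named genes 21.2% were called. With the surface divided out COQ2, a prenyltransferase of ubiquinone synthesis, was lower at -0.29 (limma's adjusted p = 0.0421). COQ2 stood at -0.21 less the local median and missed the threshold (limma's adjusted p = 0.0933). These 4 genes too lie outside the rule and were named after their values had been seen.

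In fatty acid synthesis 2 of 13 genes were higher, ACLY and ELOVL4, 0 were lower (1 at an unadjusted p under 0.05) and 11 did not pass. That was 15.4% called, beside 21.2% of named genes. ELOVL4, which extends very long fatty acids, had a ratio of 0.28 on each array (limma's adjusted p = 0.0208). Its mean was 0.20 less the local median (limma's adjusted p = 0.0717) and 0.15 with the surface divided out, and it fell to -0.29 with median centring. ACACA, the acetyl-CoA carboxylase, which uses ACLY's product, did not pass, with ratios of 0.051 on the female array and 0.094 on the male, at a signal of 43.5 and 43.8 in the trained pools, close to background; it passed only with median centring (0.25, limma's adjusted p = 0.0161). FASN, the fatty acid synthase, did not pass either, with -0.088 in females and 0.092 in males, but was called lower with median centring (-0.24, limma's adjusted p = 0.0216). All kept probes then had medians of -0.30 on the female array and -0.39 on the male, both lower than this mean of FASN. SCD, the stearoyl-CoA desaturase, had 0.018 and 0.0083 and was not well above background in every channel, so that its ratio carries little information.

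Of the genes of ketone body use, 7 were kept and 0 passed in limma's test (0 higher and 1 lower at an unadjusted p under 0.05), where 21.2% of named genes passed. OXCT1, which starts the breakdown of acetoacetate in mitochondria, had -0.18 on the female array and -0.087 on the male. With the surface divided out its mean was -0.23 and passed (limma's adjusted p = 0.0444), and less the local median it was -0.16 and did not (limma's adjusted p = 0.120). BDH1A, the 3-hydroxybutyrate dehydrogenase, had -0.23 and -0.0043.

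Of the 7 kept regulators 0 passed in limma's test (1 higher and 1 lower at an unadjusted p under 0.05), where 21.2% of named genes passed. SREBF2, the transcription factor known to control the sterol genes, had -0.28 on the female array and -0.078 on the male, in row 524 where the surface ratio was -0.29 and -0.27. INSIG1, which holds this factor back and is itself one of its targets, had -0.0039 on each array. The probe of SREBF1, which in mammals drives fatty acid genes and ACLY, was not well above background in any channel, nor were those of MBTPS1, SLC16A1 and ABCA1. In cholesterol uptake and export, 9 genes were kept, 1 higher, 1 lower and 7 not past the test, or 22.2% called. NPC2, which moves cholesterol out of lysosomes, had 0.39 on the female array and 0.30 on the male (limma's adjusted p = 0.0147), and passed also less the local median (0.31, limma's adjusted p = 0.0315) and with the surface divided out (0.23, limma's adjusted p = 0.0402), but was at -0.43 with median centring. APOA1, the main protein of high-density lipoprotein, had -0.22 and -0.36 (limma's adjusted p = 0.0264) and lies in column 83. Less the local median it was at -0.19 (limma's adjusted p = 0.0977) and with the surface divided out at -0.012.

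**Figure D4:**
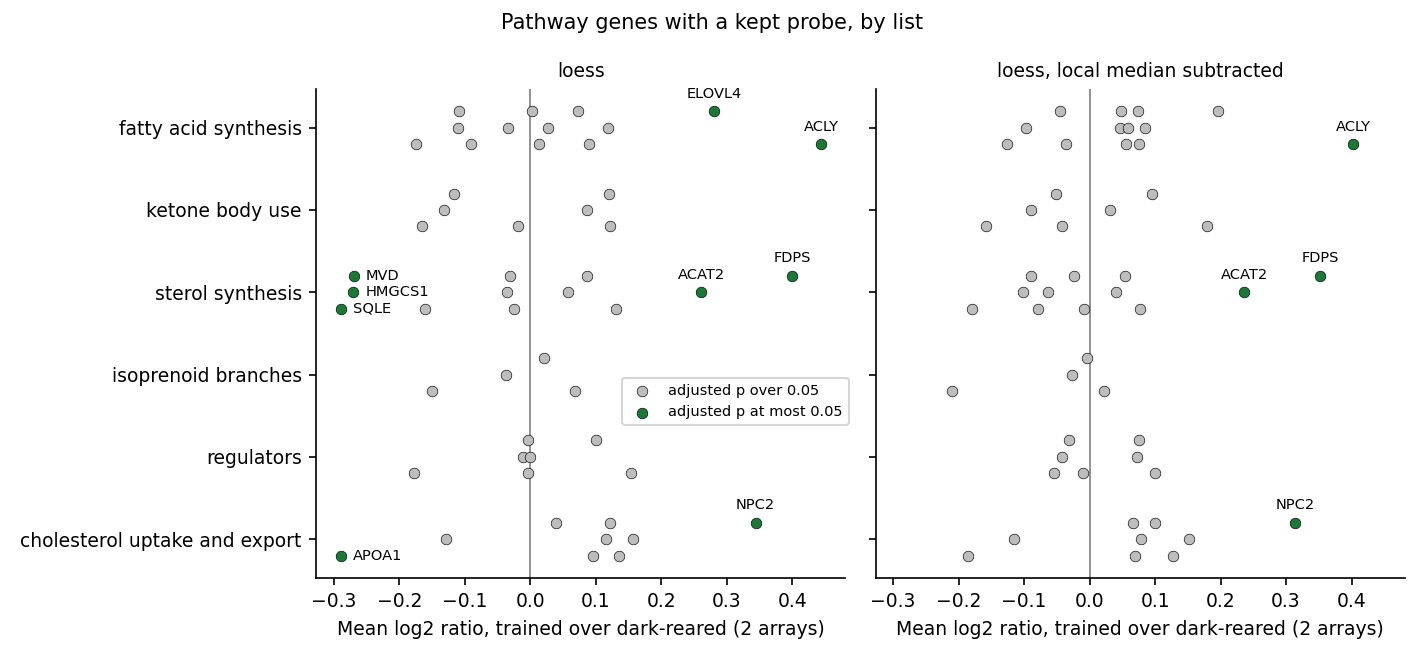
Mean log2 ratio of trained over dark-reared over the 2 arrays for the 52 pathway genes with a kept probe, by list (the vertical offset within a list carries no meaning), in loess values (left) and less the local median (right). Green points passed limma's adjusted p of 0.05: ACLY, FDPS, ACAT2 and NPC2 pass on both sides, and MVD, HMGCS1, SQLE, APOA1 and ELOVL4 only on the left.

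The genes whose pair of ratios lay nearest to each enzyme, by Euclidean distance over the 2 arrays among 7210 named genes well above background in all channels, were as follows. Nearest to ACLY were ARHGEF6, an exchange factor for Rac and Cdc42 (0.44 in females and 0.47 in males), and SLC39A12, a zinc transporter (0.42 and 0.45). Nearest to FDPS were MAMLD1 (0.40 and 0.40) and the transglutaminase TGM2 (0.41 and 0.40). For HMGCS1 they were RFESD (-0.25 and -0.30) and the protocadherin PCDH11X (-0.24 and -0.29). For MVD they were EPB42, a protein of the red cell membrane (-0.28 and -0.26), and AMER2 (-0.28 and -0.27), and for AACS the lysophosphatidic acid receptor LPAR1 (0.059 and 0.18) and DUSP15 (0.055 and 0.18). Likeness over 2 values is a weak measure: 12 genes lay within 0.05 of ACLY, 32 of FDPS, 111 of HMGCS1, 112 of MVD and 205 of AACS. With the surface divided out, the nearest gene moved to rank 44 for ACLY, 304 for FDPS, 7036 for HMGCS1, 3556 for MVD and 557 for AACS, and the next to rank 140, 16, 5696, 6188 and 4644.

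Between the sexes, MVD had the largest difference of the 5 enzymes in the loess levels, with lower values in males. Differences are log2 levels of males minus females from 1 pool each, on different arrays, with no test. They were -0.23 in trained and -0.25 in dark-reared chicks for MVD, lower than all but 3.47% and 3.05% of 25207 probes, and -0.20 for both conditions in the processed signals. ACLY differed by 0.021 in trained and -0.013 in dark-reared chicks, FDPS by -0.049 and -0.052, and AACS by 0.068 and -0.059. In the processed signals these differences were 0.10 and 0.024 for ACLY, -0.077 and -0.12 for FDPS, and 0.045 and -0.23 for AACS, so that AACS in dark-reared chicks then lay below MVD. Whether the MVD difference belongs to sex or to the array cannot be told apart.

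HMGCS1 lies on chromosome Z, of which male birds carry a pair and females a single copy. The median difference over 520 Z probes was 0.24 in trained and 0.26 in dark-reared chicks, against -0.010 and -0.0045 over 20593 probes on other mapped chromosomes. HMGCS1 was at -0.080 and -0.029, and only 6.54% and 10.4% of Z probes lay below it. In the processed signals it was at 0.012 and -0.0076, where the median of Z probes was 0.37 and 0.41. Of other pathway genes on chromosome Z, FNTA, a subunit of the prenyltransferases, was higher in males by 0.45 and 0.48, and OXCT1 by 0.27 and 0.18. PRKAA1, a subunit of AMP-activated kinase, had 0.099 and 0.091 at a signal near background, and 1.00 and 0.70 in the processed signals, in which FNTA had 0.43 and 0.53 and OXCT1 0.23 and 0.14.

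**Figure D5:**
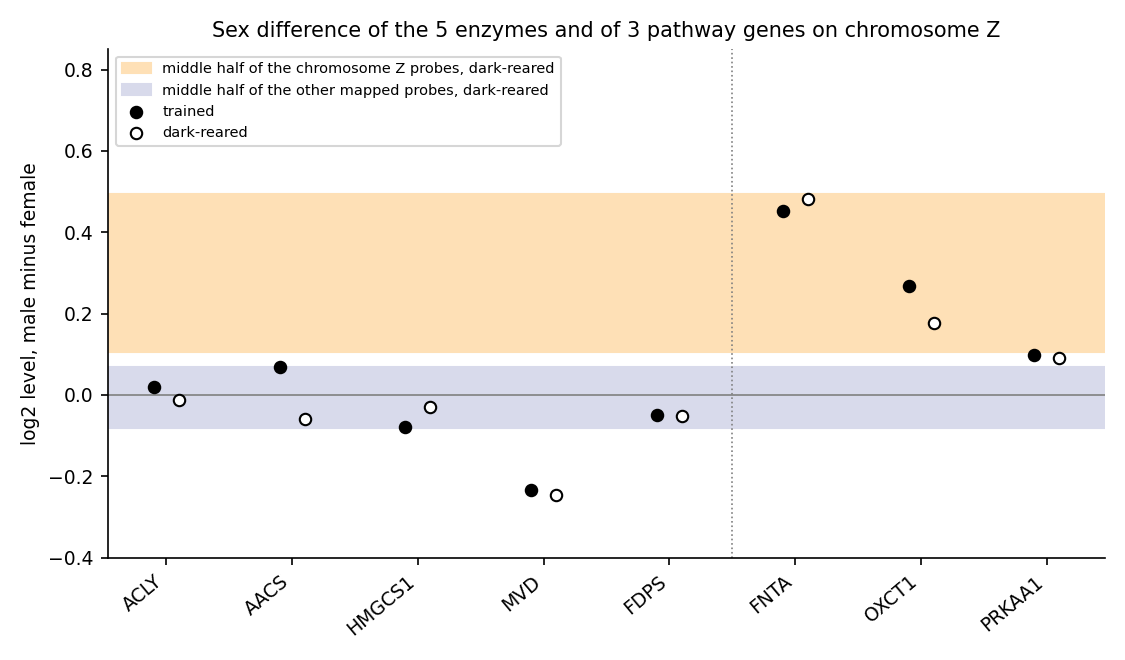
Log2 level of males minus females in trained (filled) and dark-reared (open) chicks for the 5 enzymes (left of the dotted line) and FNTA, OXCT1 and PRKAA1, pathway genes on chromosome Z (right). Bands span the 25th to 75th percentiles of the Z probes (upper band) and of probes on other mapped chromosomes (lower band) in dark-reared chicks; HMGCS1, though on chromosome Z, lies in the lower band, and MVD lies below it.

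The labelled tissue was checked against marker lists. All 6 neuronal markers on the array were well above background in all 4 channels, as were all 5 of oligodendrocytes, the myelin-forming cells, and all 7 of astrocytes. So were 3 of 4 blood and 5 of 6 vascular markers. Of the 8638 named genes with a probe, 7210 besides the 5 enzymes were too, judged by the brightest kept probe. Of 8 liver markers, tissue in which these enzymes are abundant, 5 were above background in no channel, 2 in all 4 channels and the other in 1 channel. Among the markers tested, 0 neuronal genes were higher and 2 lower, 1 oligodendrocyte gene was higher and 2 lower, 1 astrocyte gene higher and 3 lower, 1 blood gene higher and 1 lower, and 0 of 6 vascular genes higher and 3 lower, where 8.93% of all named genes were higher and 12.2% lower. With the surface divided out the counts were 0 and 1, 0 and 1, 0 and 0, 0 and 0, and 0 and 2, beside 7.99% and 5.35% of named genes. The vascular ratios ran from -0.71 for VWF to 0.22 for PECAM1, and VWF and SOX18 (-0.67) were still called at -0.27 and -0.44 with the surface divided out. CLDN5, called lower at -0.23 in loess values, was then at 0.047, PECAM1 at 0.060, KDR at -0.072 and TEK at -0.16, none of them called. VWF has 4 probes, of which only the brightest kept one was used. Oligodendrocytes make much of the brain's cholesterol, and their markers went both ways, from -0.62 for MBP, a main protein of myelin, to 0.26 for CNP, with a median of 0.0081. With the surface divided out MBP was still called lower at -0.36, CNP was at 0.22, and the median was 0.011. ASPA, at -0.44 in loess values, was then at -0.061. MBP, CNP, ASPA and the vascular genes were named after their values had been seen. The summed signals of the 5 oligodendrocyte markers were 26068 in the female and 19338 in the male trained pool. In the dark-reared pools they were 81525 and 85043, before any correction for the dyes. The part of cell composition in the ratios of ACLY and FDPS was not tested.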

How the data were processed

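Brain RNA pools were measured on 2 two-colour arrays, 1 per sex. Per the labels, trained RNA was in Cy3 and dark-reared RNA in Cy5; the titles name the dark-reared group ahead of the trained one, and the dyes set the direction. The deposited scanner tables hold mean spot intensity and median background intensity without normalization. Their processed intensity was, per the file headers, detrended, dye-normalized and given a surrogate where low. The deposited log10 ratio sets red against green, with a score of its error and a spot p-value. The multiplicative surface is a deposited ratio per spot and channel, relative to its own average. The deposited series table holds log2 ratios, equal within 0.001 to processed green over red for 42034 of 42034 probes, with medians of 0.067 and 0.082. The software is Agilent Feature Extraction, version 9.5.3.1 per the file headers and 8.5.1.1 per the submitters' processing notes.

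Signals were corrected with normexp (offset 50) and normalized by loess with controls at weight 0 in limma 3.58.1 (R 4.3.3). Probes that the software had flagged as outliers (25) were not used, and 27372 probes whose signal on each array stood well above background in 1 channel or both were kept. Limma's lmFit and eBayes tested the mean of both arrays against 0, with Benjamini-Hochberg adjustment, 1 residual and 5.06 prior degrees of freedom. Limma's p-values rest only on the spread between these arrays, sex included, moderated towards a variance estimated over all kept probes. The SD given beside a mean is therefore not the error in its test. For FDPS the SD was 0.0027 and the standard error in the fit was 0.053. The number of arrays limits the precision. Sex levels used loess and Aquantile. Probes were named through a RefSeq table of assembly GRCg7b by accession (5193), gene number (3643) or symbol (952), 205 took the symbol of the design, and 32041 have no name here. MVD's probe carries no symbol and was named by its accession and description.

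The fit was tested on simulated data for the 27372 kept probes: it found 11 of 67 probes with a 1.25-fold change, 64 of 67 with a 1.5-fold change and all 66 with a 2-fold change, and called 20 probes in error. The simulated noise was independent between arrays and held no position or dye effect. In the real data the local medians of the arrays correlated at r = 0.94. The simulated counts therefore do not give the error rate of the real calls. Alternatives changed the background correction, values, normalization, filter, moderation and arrays. Named genes are the 5 enzymes, every listed gene past adjusted p 0.05, a set of key pathway genes whatever their values, and the 2 genes nearest to each enzyme. The members and lists were chosen with earlier results of these data known. Some listed genes were counted but their own results are left out here.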

Additional observations from a re-analysis of the deposited data

Results flagged for a closer look

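FASN, the fatty acid synthase, had ratios on opposite sides of 0 in the sexes and its mean did not pass in loess values. Its ratio was -0.088 in females and 0.092 in males, a male minus female difference of 0.18. With 1 array per sex the difference was not tested.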

How the results depend on the processing

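ACLY passed under each background correction, filter and moderation and both position adjustments. At offset 16 it passed only narrowly (limma's adjusted p = 0.0490), and all calls at that offset lay between this value and 0.05. ACLY did not pass in the processed signals (0.70) or with median centring (0.17). FDPS likewise did not pass in the processed signals (0.29) and reversed with median centring (-0.42). HMGCS1 did not pass with an offset of 16 (-0.27) or less the local median (-0.18), reversed with the surface divided out (0.033) and in the processed signals (0.082), and was -1.23 with median centring. MVD did not pass at offset 16 (-0.26) or less the local median (-0.10), reversed with the surface divided out (0.049) and in the processed signals (0.030), and was -1.09 with median centring. None of these reversed values of HMGCS1 and MVD passed. With the surface divided out, the medians at their edges were above 0 too. On the female and male array they were 0.060 and 0.11 in column 84, and 0.077 and 0.13 in rows 529 to 532. The processed signals were detrended too, so they are not independent of the surface division. AACS reversed with median centring (-0.32, where it passed) and with the surface divided out (-0.025). With median centring all kept probes had medians of -0.30 on the female array and -0.39 on the male, and ratios were not centred at each signal strength. The deposited series table gave the same values as the processed signals, in which limma called 0 probes in either direction (4878 at an unadjusted p under 0.05, smallest adjusted p 0.261).

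Other reversals were, with median centring, ACAT2 (-0.61), ELOVL4 (-0.29), NPC2 (-0.43), and FASN (-0.24); in the processed signals, SQLE (0.092), SCD (-0.0056), SREBF2 (0.026), INSIG1 (0.042) and BDH1A (0.063); with the surface divided out, SQLE (0.067), ACACA (-0.026), SCD (-0.13), SREBF2 (0.10) and INSIG1 (0.011); less the local median, SCD (-0.045); without background correction, FASN (-0.0025) and INSIG1 (0.011); and at offset 16, INSIG1 (0.025).

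The 1726 probes called higher and 3074 called lower became 306 and 628 at offset 16, 974 and 16499 with median centring, and 873 and 1248 less the local median, and 1745 were lower with the surface divided out. Of the pathway genes, 5 higher and 4 lower became 2 and 0 at offset 16, 1 and 40 with median centring, 3 and 2 with the surface divided out, and 0 and 0 in the processed signals; less the local median 0 were lower. Of the 1726 higher calls, 790 were also called less the local median and 641 with the surface divided out, and 0 changed sign there. Of the 3074 lower calls, 1190 were also called less the local median and 814 with the surface divided out, where 618 changed sign. The cause of the other changes was not tested.

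Leaving out either array gave 0.43 to 0.46 for ACLY, 0.40 for FDPS, -0.30 to -0.25 for HMGCS1, -0.28 to -0.26 for MVD and 0.057 to 0.18 for AACS, with no test on 1 array. No paired analysis was possible because each sex has 1 array and each ratio already sets the 2 pools of a sex against each other. The slide could not be a block, since both arrays share it. ACLY's signal near background, 1 probe per enzyme and no dye swap limit these results.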
